A study of Mus musculus with 8 samples.

Results

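Forebrain microvessels of 5-day-old mice (P5) were compared directly with those of adult mice on 2 dual-colour Agilent whole-genome arrays, the 2 of 8 arrays in the series that carry this pair of ages. On both arrays the P5 RNA was labelled with Cy5 and the adult RNA with Cy3, so each array gives 1 ratio of P5 over adult for every gene, and the number of arrays is the limit on precision. The vessels came from whole forebrain that had been homogenised, sedimented on a density step and passed through a mesh, a procedure that enriches vessel fragments and leaves some attached cells and blood. No genotype, treatment, strain, sex or adult age is given in the sources used here, and the other 6 arrays, which hybridised 10-day-old (P10) RNA against adult or P5 RNA, serve below only as checks. The labels number the arrays 1 and 2 without saying whether the animals differed, so a p-value here covers no more than the scatter of these 2 arrays, and that scatter may be technical.

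A brain microvessel is a tube of endothelial cells sealed by junctions, wrapped by pericytes or, in arterioles, by smooth muscle, and held by a basement membrane and astrocyte endfeet. In the first weeks after birth the vessel bed of the rodent forebrain is still growing by sprouting and division, while neurons are still being placed and myelin has barely begun to form. Mature endothelium carries transporters, detoxifying enzymes and receptors for blood-borne hormones and cytokines, and circulating blood cells can travel with isolated vessels.

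Before the comparison, the P5 RNA numbered replicate 1 stood apart. Skeletal muscle genes, gathered in a list of 30 after their values had been seen, were high in the P5 RNA of replicate 1. On the P5/adult array of replicate 1 the 29 muscle genes with a value had a median log2 ratio of 3.7 (range 0.224 to 6.55), and 27 of them were at least 2-fold higher at P5. On the array of replicate 2 the median was -0.0192 (range -2.05 to 1.07), and 1 gene was at least 2-fold higher. The P5/P10 arrays gave medians of 3.55 in replicate 1 and -0.0264 in replicate 2, while the P10/adult arrays of the same dye orientation gave 0.379 and 0.142. The labels give the replicate number and do not say whether the P5 RNA was the same on both kinds of array. Acta1, the skeletal muscle actin, had a normalised log2 intensity of 14.61 in the P5 channel of replicate 1 and 7.11 in that of replicate 2, with 9.22 and 9.16 in the adult channels. Myl1, a fast-fibre myosin light chain, had log2 ratios of 6.55 and -0.32, and Ckm, muscle creatine kinase, had 4.93 and -0.12. All 29 genes were well above background in the P5 channel of replicate 1, 20 in that of replicate 2, and 23 and 17 in the adult channels. For 21 of them the brightest probe, used here, entered the test, and 6 of these were called higher (Myh3, Tnni2, Tnnc2, Eno3, Neb and Ryr1) and 0 lower. The log2 ratios of these 6 ran from 2.22 to 5.51 in replicate 1 and from 0.499 to 1.07 in replicate 2. A muscle gene could also be tested through another probe, as Ttn was, with log2 ratios of 5.985 and -0.0735. Across all genes, each by its tested probe, 52 had a ratio at least 4-fold larger in replicate 1, 19 of them on the muscle list. In replicate 2, 24 had one at least 4-fold larger. The part of muscle RNA in any other difference was not tested.

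**Figure D1:**
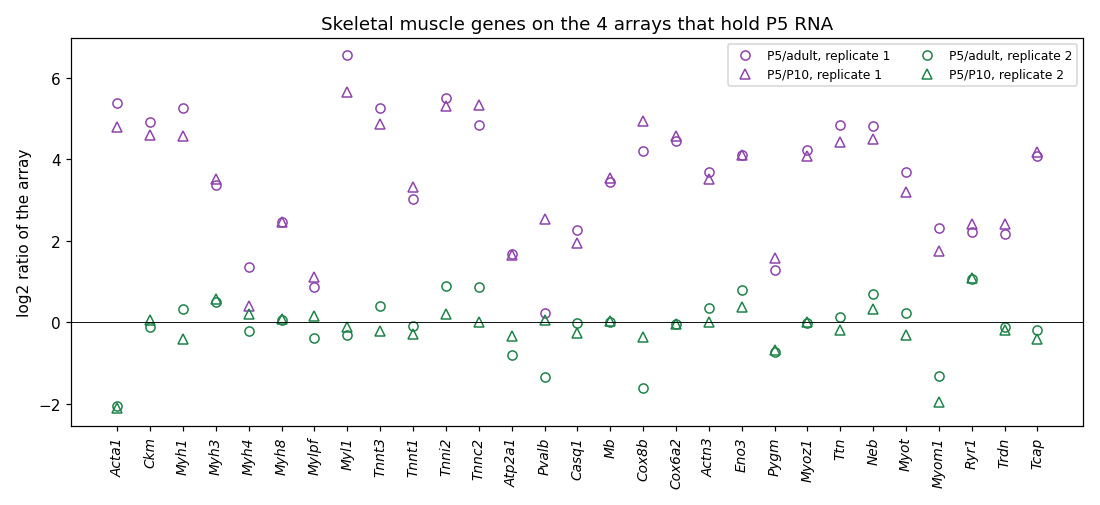
Log2 ratio (vertical axis) of each skeletal muscle gene (horizontal axis) on the P5/adult and P5/P10 arrays of both replicates, 1 mark per array. Both arrays of replicate 1 lie far above 0, with medians of 3.7 and 3.55, while the arrays of replicate 2 lie around 0.

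The microglial, granulocyte and lymphocyte lists differed between the replicates in the other direction, while the perivascular macrophage list had medians of 0.0462 and 0.0107. The microglial list had a median log2 ratio of 0.227 in replicate 1 and 1.26 in replicate 2, the granulocyte list 0.0513 and 1.11, and the lymphocyte list 0.152 and 0.796. Of 43020 gene spots per array, 71% and 72.7% were well above background in the P5 channels of replicates 1 and 2, and 65.9% and 67.7% in the adult channels. Age and dye channel cannot be told apart in these shares.

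The scale of the ratios is relative. Each array was centred by loess, and the median log2 ratio of all genes was 0.085. Centring each array on its median without loess moved that median to 0.235, and shifting each array by the spike-in intercept in its header moved it to -0.774, so a direction below means higher or lower than the bulk of the transcripts on the array. Because P5 was always Cy5, a gene's dye bias stays in its ratio. The P10/adult pair, hybridised in both dye orientations, gave a dye term for 22007 genes, with a median size of 0.063 and a 99th percentile of 0.34 on the log2 scale. All 10568 called genes with a dye term kept their sign when it was subtracted, and in 54 of them it was over 50% of the ratio.

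Promoter sequences are shown first for the genes at the ends of the ranking that share features. RefSeq promoters (build GRCm38.p6, 250 bases before to 50 after the start) were matched for 39 of the 46 genes named by rank. Ifit1, Oas1a and Gbp5, all interferon-induced, were among the 15 lowest at P5. They are shown because each holds the core of the interferon-stimulated response element, searched as GAAA, any 2 bases and GAAA again on either strand, which is in capitals. The windows are chr19:34640639-34640938 on the plus strand for Ifit1, chr5:120907476-120907775 on the minus strand for Oas1a, where the matches overlap, and chr3:142496684-142496983 on the plus strand for Gbp5.
Ifit1: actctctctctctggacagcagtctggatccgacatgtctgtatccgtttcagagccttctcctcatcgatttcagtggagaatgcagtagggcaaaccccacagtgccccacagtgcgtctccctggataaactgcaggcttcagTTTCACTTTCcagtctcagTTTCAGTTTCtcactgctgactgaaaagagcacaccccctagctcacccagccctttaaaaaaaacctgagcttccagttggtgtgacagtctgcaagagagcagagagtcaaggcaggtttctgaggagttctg
Oas1a: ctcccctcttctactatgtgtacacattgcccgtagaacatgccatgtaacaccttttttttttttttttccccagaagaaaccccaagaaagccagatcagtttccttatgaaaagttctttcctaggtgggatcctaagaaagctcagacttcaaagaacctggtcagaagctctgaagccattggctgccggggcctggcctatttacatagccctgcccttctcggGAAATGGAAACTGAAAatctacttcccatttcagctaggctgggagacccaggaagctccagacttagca
Gbp5: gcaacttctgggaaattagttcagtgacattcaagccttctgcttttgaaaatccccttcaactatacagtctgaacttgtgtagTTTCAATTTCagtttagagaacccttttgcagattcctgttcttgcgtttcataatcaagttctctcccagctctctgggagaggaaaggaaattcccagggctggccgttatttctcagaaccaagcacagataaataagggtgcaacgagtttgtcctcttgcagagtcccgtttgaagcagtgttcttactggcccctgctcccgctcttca

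The motif was present in 26 of the 183 promoters (14.2%) of genes called at least 4-fold lower at P5. It was present in 11 of 266 (4.14%) of those at least 4-fold higher, in 3.77% of the 12451 tested genes with a promoter and in 3.99% of all 27025 promoters. The 26 genes included the guanylate-binding proteins Gbp2, Gbp3, Gbp5 and Gbp7, the immunity-related GTPases Igtp, Irgm1, Irgm2 and Tgtp2, and the RNA sensor Ifih1. Others on that list have no such role, among them Edn1, the vasoconstrictor endothelin, Glul, glutamine synthetase, and Vtn, vitronectin. Gm11127 and H2-T23, related class I genes with mean ratios of -2.47 each, may share signal on the array. For comparison, TTTGAA, the letters of the cell cycle homology region, was present in 20.7% of the promoters at least 4-fold higher and 24% of those at least 4-fold lower, against 14.8% of the tested ones. The erythroid factor motif AGATAAG was present in 4.89% and 2.19%, against 2.6%. TATAAA, the letters of the TATA box, was present in 11.7% and 23%, against 10.3%, so the interferon motif was not alone in its larger share among the lower genes. A match is a description of letters and was given no test.

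The stefins Cstdc5, Stfa1 and Stfa2, inhibitors of cysteine proteases known from myeloid cells, were among the 15 highest. Cstdc5 and Stfa1 are shown because their promoters share a run of 59 bases, in capitals, in a cluster of near-identical genes whose probes may read more than 1 member. The windows are chr16:36367521-36367820 on the minus strand for Cstdc5 and chr16:36276898-36277197 on the plus strand for Stfa1.
Cstdc5: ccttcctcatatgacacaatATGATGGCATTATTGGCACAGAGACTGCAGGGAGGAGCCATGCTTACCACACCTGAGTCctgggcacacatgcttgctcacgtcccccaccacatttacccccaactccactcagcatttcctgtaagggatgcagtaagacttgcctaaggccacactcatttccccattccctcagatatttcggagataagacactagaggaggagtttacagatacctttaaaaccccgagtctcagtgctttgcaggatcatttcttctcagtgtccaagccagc
Stfa1: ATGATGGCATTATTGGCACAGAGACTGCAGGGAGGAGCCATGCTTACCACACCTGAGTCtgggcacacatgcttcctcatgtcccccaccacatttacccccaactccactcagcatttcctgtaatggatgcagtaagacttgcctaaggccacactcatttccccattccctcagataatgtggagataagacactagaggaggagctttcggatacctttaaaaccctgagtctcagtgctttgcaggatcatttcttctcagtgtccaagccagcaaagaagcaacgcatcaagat

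Of 22221 genes tested with limma, 6207 (27.9%) were higher at P5 and 4460 (20.1%) lower, at a Benjamini-Hochberg adjusted p below 0.05; these are the genes described as called. All 10667 had the same sign on both arrays, but a gene of opposite signs on 2 arrays could not pass at this threshold. The shared sign is therefore no separate check. The largest differences were higher at P5: 2819 genes (12.7%) were at least 2-fold higher and 1385 (6.23%) at least 2-fold lower, 114 against 43 differed at least 8-fold, and 12 against 0 at least 32-fold. Centred on the median, the split was 8132 higher and 3090 lower, so that 72.5% of the calls were higher instead of 58.2%. The test took in 1182 genes well above background at P5 only and 152 in adults only. The filter thus admitted more genes through the P5 channel than through the adult channel. Among genes well above background in all channels, 5745 were higher and 4292 lower, and 57.2% of the calls were higher. With 1 array alone, a value with no test, the 2-fold counts were 2969 higher and 1526 lower without replicate 1, and 2870 and 1463 without replicate 2. The ratios of the arrays correlated across genes, which are not independent replicates, with r = 0.89 and rho = 0.88. The median standard error of a mean ratio was 0.139. Standard errors here, also those after ±, are limma's moderated ones. They draw each gene's variance towards a value shared by all genes, so they do not give the spread of its 2 ratios. Among 2282 called genes with further probes, 82% had the same sign on every probe.

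**Figure D2:**
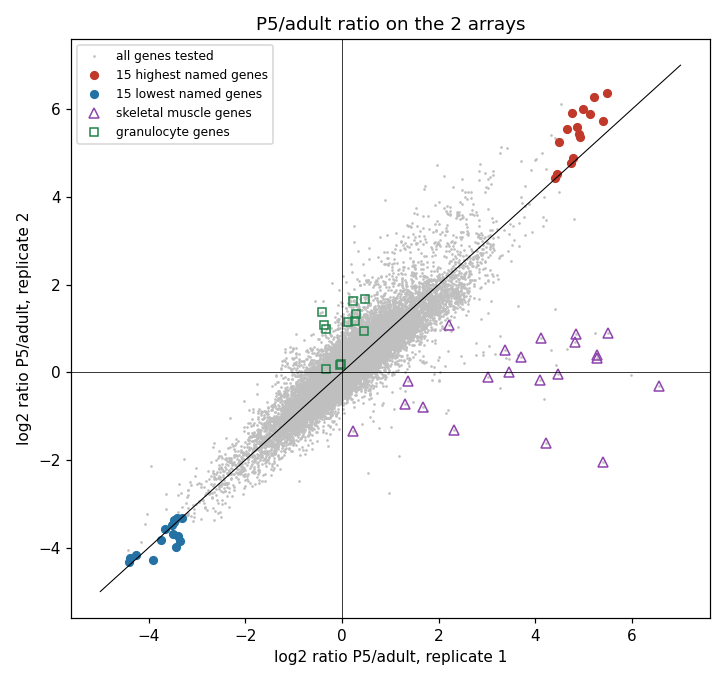
Log2 ratio of P5 over adult on the array of replicate 1 (horizontal axis) against that of replicate 2 (vertical axis) for all 22221 genes tested, with the 15 highest, the 15 lowest, skeletal muscle and granulocyte genes marked. The named genes, chosen for large ratios on both arrays, lie along the diagonal. The muscle genes extend far to the right at ratios near 0 on replicate 2.

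The 15 genes highest at P5 included 5 globins, Alas2 and Slc25a37 of haem synthesis and iron supply, 3 stefins, Mki67 and Fabp7. Hba-a1, an adult alpha-globin, had log2 intensities of 19.48 and 18.94 in the P5 channels and 14.49 and 12.94 in the adult channels, a mean log2 ratio of 5.50 ± 0.25 (SE, n = 2 arrays; limma adjusted p = 0.00023). The P5 spots of Hba-a1 and Hba-a2 were saturated on the array of replicate 2, so their levels there are lower limits. The dye terms of Hba-a1 on the P10/adult slides were 1.02 and 0.93, and its mean ratio was 4.52 once they were subtracted. Hbb-b2, a beta-globin, had 19.04 and 18.48 at P5 against 14.13 and 13.05 in adults, a mean ratio of 5.17 ± 0.17. Hbb-bs, a beta-globin whose dye terms were 0.04 and 0.01, had log2 ratios of 5.21 and 6.27. Alas2, the erythroid enzyme that starts haem synthesis, had 16.44 and 17.18 against 11.66 and 12.30, a ratio of 4.82 ± 0.13. Slc25a37, which carries iron into erythroid mitochondria, had a ratio of 5.15 ± 0.16, and a further probe of it gave 2.87. These genes were high in both P5 libraries, and the adult values lay below them by more than the spread between arrays. They were chosen for large ratios on both arrays, so this is no separate support. In bulk RNA, fewer cells of a type and less RNA per cell cannot be told apart.

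Cstdc5 had 12.57 and 13.24 at P5 against 7.08 and 6.87 in adults, a ratio of 5.93 ± 0.22 (limma adjusted p = 0.00023). Stfa1 had 11.99 and 12.74 against 6.85 and 6.86, and Stfa2 had 11.64 and 12.50 against 6.99 and 6.95. In all of them replicate 2 had the higher P5 value, and the granulocyte list had its larger median ratio on replicate 2. Mki67, a nuclear protein of dividing cells, had 12.63 and 12.53 at P5 against 7.90 and 7.77, a ratio of 4.75 ± 0.13, and its further probe gave 4.64. Fabp7, a fatty acid binding protein of radial glia and immature astrocytes, had 15.07 and 15.19 against 10.67 and 10.76, a ratio of 4.41 ± 0.13. The remaining genes of the 15 highest were Hba-a2, Hbb-bt, Unc93a2, Zdhhc22, a member of the palmitoyltransferase family, and Tent5c, a poly(A) polymerase. Their mean ratios ran from 4.49 for Hbb-bt to 5.57 for Hba-a2, and with the dye terms subtracted these were 3.72 and 4.79.

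The genes lowest at P5 were transporters, sphingolipid enzymes, vascular receptors and ligands, contractile genes and interferon-induced genes. Slco1a4, an organic anion transporter of the blood-brain barrier, had 9.10 and 9.53 at P5 against 13.50 and 13.86 in adults, a ratio of -4.37 ± 0.13 (limma adjusted p = 0.00023). Degs2, an enzyme that makes phytoceramide, had 8.92 and 9.02 against 13.29 and 13.25, a ratio of -4.31 ± 0.14, and Sgms1, a sphingomyelin synthase, had -3.42 ± 0.13. Flt1, a receptor for vascular endothelial growth factors, had 13.34 and 13.16 against 17.01 and 16.73, a ratio of -3.62 ± 0.13. Both P5 values lay below both adult values in each of these genes, which were chosen for large ratios on both arrays. Klf2, a transcription factor induced by flow, had 11.05 and 11.22 against 14.56 and 14.70, a ratio of -3.49 ± 0.13. Prlr, the prolactin receptor, had 7.02 and 7.41 against 10.77 and 11.24, and its further probe gave -1.78 against -3.79. Cxcl12, a chemokine, had a ratio of -4.22 ± 0.13 on 1 probe and 0.18 on the other, so its probes disagreed.

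Tagln, a smooth muscle actin-binding protein, had 10.88 in both P5 channels against 14.38 and 14.57, a ratio of -3.60 ± 0.14. Ndrg1, a stress-responsive gene, had 10.22 and 10.04 against 14.14 and 14.31, a ratio of -4.10 ± 0.15. Fas, the death receptor, and Clic5, a chloride intracellular channel family member, had ratios of -3.45 and -3.56. Sema3c, a secreted guidance cue, had -3.60 ± 0.17, with -2.89 on a further probe. Of the interferon-induced genes, Ifit1, which binds foreign RNA, had 6.40 and 6.28 at P5 against 9.81 and 9.61, a ratio of -3.37 ± 0.13. Oas1a had -3.32 ± 0.13, with -2.09 on a further probe, and Gbp5 -3.70 ± 0.17.

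**Figure D3:**
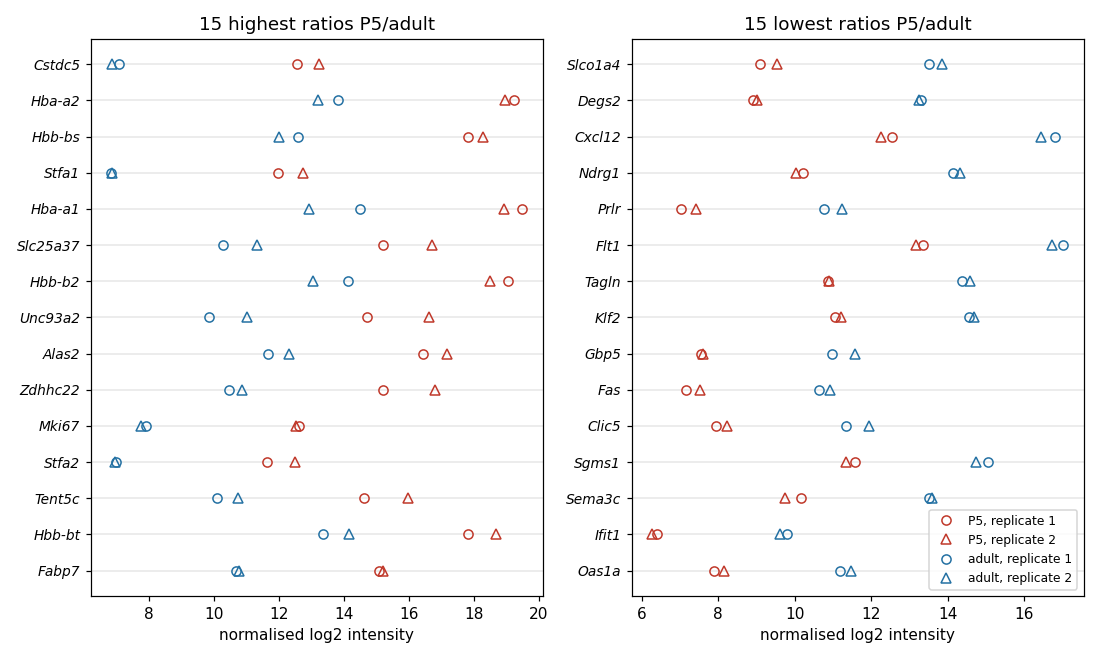
Normalised log2 intensity (horizontal axis) of the 15 genes with the highest and the 15 with the lowest P5/adult ratios (vertical axis), 1 mark per channel and replicate. In every gene both P5 values lie on the same side of both adult values, which follows closely from choosing genes with large ratios on both arrays.

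For genes that were well above background at only 1 age, the fold was computed as a bound: the bright age's mean was set against, on each array, the higher of the dimmest signal still well above background and the dim probe's own signal. Where the probe's own signal was the higher on both arrays, as for Aspm, Cpa3, Cenph, Top2a, Vmn1r168, Mesp2 and Cysltr2, the bound equals the fitted ratio. Such genes numbered 1182 at P5 only (581 with a symbol) and 152 in adults only (107 with a symbol), and in most the bound was small: 67 at P5 and 15 in adults exceeded 2-fold. Because P5 was Cy5 and adult Cy3 on both arrays, age and dye channel cannot be told apart in these counts. All of these genes entered the test only through their bright age, so a call among them is no separate support. Genes without a symbol are left out of the order that follows. The largest adult bound was that of Ptgs2, the inducible cyclooxygenase, at least 8.45-fold higher in adults. Next came Etnppl, a phospholyase expressed in astrocytes, at least 4.38-fold, Pln, the phospholamban that restrains the calcium pump of muscle, at least 3.67-fold, and Cysltr2, a leukotriene receptor, at least 3.65-fold. Plscr4, Hapln2 and Opalin, the latter 2 of myelinated tissue, followed at 3.33-, 2.86- and 2.80-fold, with Myocd, a coactivator of smooth muscle genes, at 2.68-fold. At P5, among genes with a symbol, the largest bounds were those of Cpa3, a mast cell protease (at least 5.19-fold), and of the mitotic genes Aspm (5.09-fold), Cenph (4.48-fold), Ska1 (4.47-fold) and Top2a (3.82-fold). Cpa3 was uneven, at 7.79 in replicate 1 and 9.55 in replicate 2. Vmn1r168 and Mesp2 reached 4.25- and 4.02-fold. Actn3, a fast-fibre muscle actinin, was at 10.28 in replicate 1 and 6.34 in replicate 2, was not called (adjusted p = 0.06) and moved with the muscle genes above.

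Gene lists are described by how many measured members were called and by their median log2 ratio. These are to be read against 27.9% higher, 20.1% lower and a median of 0.085 over all genes. Those shares include the genes well above background at only 1 age. In the sentences that follow, pairs of values in parentheses are the log2 ratios of replicates 1 and 2. Members at the extremes were chosen for their values, and the lists were assembled with results of these data known, so the counts carry no test. Of the 46 lists, 20 had a median above 0, and with the spike-in scaling 2 did, immature neurons and red blood cells; the called genes Nfil3, Fkbp5, F2r, C3, S100a8 and 13 others changed sign there.

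Receptors and cytokine signalling were mostly lower at P5. Of 19 endothelial G-protein coupled receptor genes measured, 13 were lower and 2 higher (median -0.996). The lowest were the adhesion receptors Adgrl4 (-2.48, -2.56) and Adgrf5 (-2.24, -2.62), and S1pr1, which keeps junctions closed, had -2.43 and -2.17. Ednrb, an endothelin receptor (1.17, 1.16), and F2r, a thrombin receptor (1.09, 0.63), were the 2 that were higher. Of 22 cytokine receptor and STAT genes, 16 were lower and 1 higher (median -0.68). Il10rb had -2.65 and -2.42, Osmr, the oncostatin M receptor, -1.49 and -1.55, and Il6st, the shared signal chain of the interleukin-6 family, -1.21 and -1.80. The exception was Ifngr2 (0.95, 0.87), a chain of the interferon gamma receptor. Of 15 complement genes, 7 were lower and 2 higher (median -0.33): C1ra, a protease of the classical pathway, had -1.57 and -1.82, and Cfp, properdin, had 1.51 and 1.18. The complement median was -0.562 in replicate 1 and 0.0371 in replicate 2, and the cause of that difference was not tested. C3 was called higher at 0.48 and 0.46, and its further probe gave -0.45.

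Growth factor and insulin signalling were mixed. Of 19 FGF and PDGF genes, 7 were lower and 4 higher (median -0.14, or 0.0021 with median centring). Pdgfd (-1.45, -2.09) and Pdgfrb, the receptor on pericytes (-1.14, -1.36), were lower, and Etv4, a transcription factor induced by FGF signals, was higher (2.69, 2.50), with 1.99 on a further probe. Of 17 insulin and FOXO genes, 8 were lower and 4 higher (median -0.41). Grb14, an adaptor that inhibits the insulin receptor (-1.87, -2.10), and Igf1r (-1.76, -1.95) were lower, and the transcription factor Foxo6 (1.33, 1.30) was higher, with 0.29 on a further probe. Among 22 heparan sulfate proteoglycans and their enzymes, 9 were higher and 5 lower (median 0.14), with the cell surface glypicans Gpc1 (2.15, 2.15) and Gpc3 (1.74, 1.32) at the top and the syndecans Sdc4 (-1.06, -1.06) and Sdc2 (-0.79, -1.22) at the bottom.

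Guidance genes were higher more often than lower. Of 24 semaphorin, plexin, neuropilin, Slit, Robo and netrin genes, 12 were higher and 7 lower (median 0.41). The receptors Plxna3 (3.47, 3.38) and Robo2 (1.67, 1.96) led the higher members, and the ligands Sema3c (-3.34, -3.85) and Ntn4 (-2.40, -2.55) the lower. Of 18 ephrin and Eph genes, 11 were higher and 3 lower (median 0.58). Ephb6 (2.61, 4.12) and Ephb3 (2.38, 1.82) were highest, although a further Ephb6 probe gave 0.27. Ephb4 (-1.13, -1.26), the receptor that marks venous endothelium, and the ligand Efna1 (-1.15, -1.08) were lowest.

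Lists of hormone, clock and stress responses held more lower than higher calls. Of 14 glucocorticoid response genes, 10 were lower and 2 higher (median -1.25). Klf9 (-2.24, -1.88) and Cdkn1a, a cell cycle inhibitor (-1.95, -1.52), were lowest, and Tsc22d3 had -1.45 and -1.89. Fkbp5, a chaperone that damps the receptor (0.79, 0.76), and Angptl4, an inhibitor of lipoprotein lipase (2.24, 1.63), were higher. Of 16 circadian genes, 9 were lower and 1 higher (median -0.48). Nr1d1 (-1.69, -2.01) and Bhlhe40 (-1.57, -1.66), repressors in the clock loop, were lowest. Dbp (-0.60, -0.95) and Bmal1 (-0.95, -1.07) were also lower, while Per1 (-0.07, -0.03) and Per2 (-0.01, -0.03) gave ratios near 0 without passing the test. The 1 higher clock gene, Nfil3 (0.43, 0.39), lost its call in 7 of 12 other settings with a test. Of 17 hypoxia response genes, 10 were lower and 4 higher (median -0.67). Epas1, the oxygen-regulated factor of endothelium, had -2.83 and -3.10, but its further probes ranged from -2.28 to 1.02. Vegfa, the growth factor for vessels, had 1.76 and 1.49, with 0.46 on a further probe, and Hif3a 1.40 and 1.49, with 0.56 on a further probe.

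Of 19 unfolded protein response genes, 10 were lower and 0 higher (median -0.49), led by Trib3 (-1.94, -2.48) and Dnajb9 (-1.37, -1.69); Hspa5, the main chaperone of the list, gave -0.18 and -0.33 without passing the test. Of 15 p53 target genes, 8 were lower and 3 higher (median -0.48), led by Pmaip1, a promoter of apoptosis (-4.04, -3.23). Of 17 genes of metallothionein and oxidant defence, 6 were lower and 2 higher (median -0.19, or 0.0863 with median centring). The metal-binding Mt2 (-2.34, -2.25) and the secreted dismutase Sod3 (mean -2.07 ± 0.13) were lowest, and the peroxide-removing Cat (1.64, 1.53) and Gpx1 (1.46, 1.92) were higher. A further Cat probe gave 0.48. Of 18 xenobiotic and glutathione transfer enzymes, 11 were lower and 0 higher (median -0.79), with Aldh1a1, which oxidises retinal (-2.06, -1.90), and Cyp2d22 (-1.71, -1.58) lowest.

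**Figure D4:**
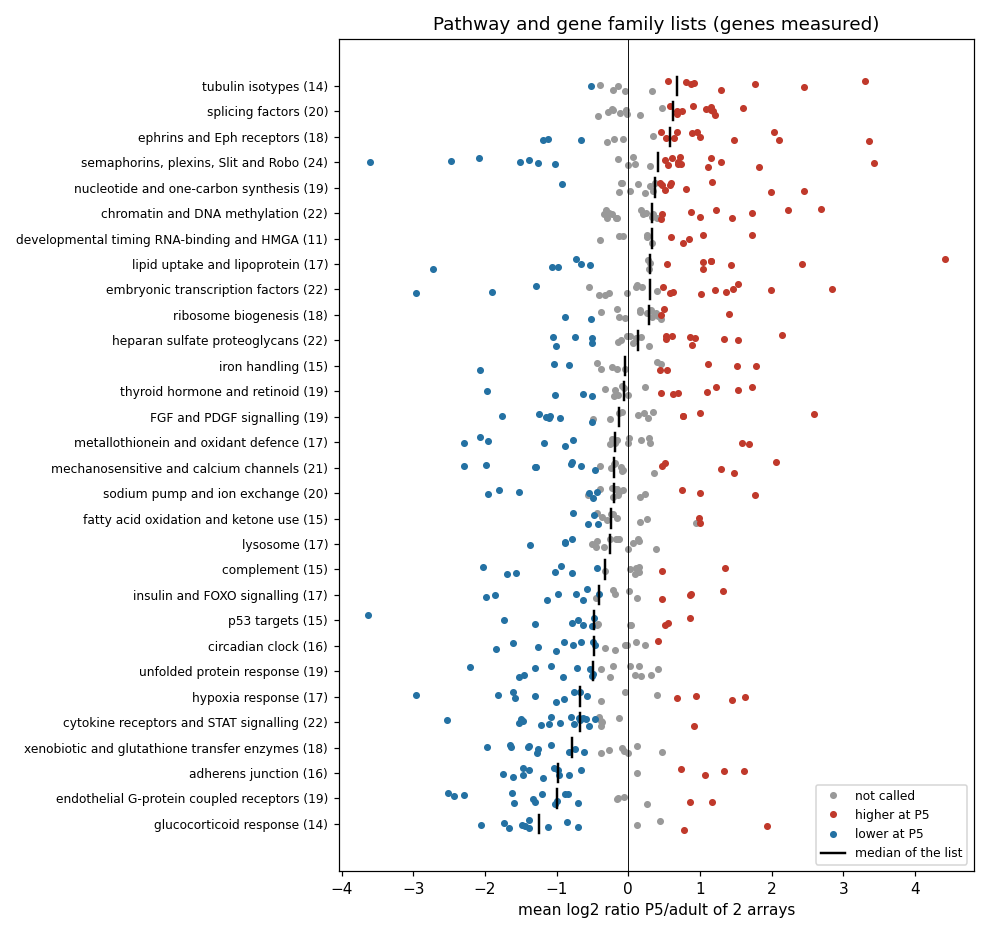
Mean log2 ratio of P5 over adult (horizontal axis) of each measured member of 30 pathway lists (vertical axis, number measured in parentheses), coloured by the call, with a black line at each list's median. The glucocorticoid list has the lowest median, at -1.25, and the tubulin list the highest, at 0.68.

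Junction and channel genes were also mostly lower or mixed. Of 16 adherens junction genes, 11 were lower and 4 higher (median -0.98). Icam2 (-1.68, -1.83) and Pecam1 (-1.26, -1.95), endothelial adhesion molecules, were lowest, Cdh5, the endothelial cadherin, had -0.92 and -1.47, and Cdh2, the neural cadherin, was highest (1.52, 1.71). Of 21 mechanosensitive and calcium channel genes, 8 were lower and 5 higher (median -0.19): Itpr3, a store calcium channel (-2.15, -2.43), and Ano1, a calcium-gated chloride channel (-1.82, -2.15), against the voltage-gated T-type channels Cacna1g (2.13, 2.00) and Cacna1h (1.76, 1.19). A further Cacna1h probe gave 0.21. Of 20 sodium pump and ion exchange genes, 6 were lower and 3 higher (median -0.19), with Atp2a3, an endoplasmic calcium pump, at -2.10 and -1.82, and Fxyd6, a regulator of the sodium pump, at 1.67 and 1.87.

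Metabolic lists were mixed. Of 17 lipid uptake and lipoprotein genes, 8 were higher and 6 lower (median 0.30), with the binding proteins Fabp7 (4.40, 4.43) and Fabp5 (2.34, 2.51) at the top and the apolipoprotein Apod (-2.69, -2.76; further probe -0.92) at the bottom. Of 15 fatty acid oxidation and ketone genes, 4 were lower and 2 higher (median -0.25, with 0.0102 in replicate 1 and -0.494 in replicate 2), and none of the calls reached 2-fold. Cpt1a, which admits fatty acids to mitochondria, had -0.47 and -0.65, and Bdh1, which uses ketones, had 0.76 and 1.23. Of 19 nucleotide and one-carbon genes, 9 were higher and 1 lower (median 0.38), led by Rrm2, a subunit of ribonucleotide reductase (2.39, 2.52), and Tk1, thymidine kinase (1.64, 2.36). Of 15 iron genes, 5 were higher and 3 lower (median -0.05, or 0.162 with median centring): Ftl1, ferritin light chain (1.08, 2.49), against Cp, ceruloplasmin (-1.87, -2.27). Of 19 thyroid and retinoid genes, 7 were higher and 4 lower (median -0.05, or 0.131 with median centring), with Crabp2, a retinoic acid binding protein, at 1.37 and 1.70, and Rxrg, a retinoid receptor, at 1.76 and 1.69, with 0.68 on a further probe. Of 17 lysosomal genes, 4 were lower and 0 higher (median -0.25). Tfeb, the transcription factor that drives lysosome genes, had -1.35 and -1.40.

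Lists of nuclear and growth genes held more higher than lower calls. Of 22 chromatin and DNA methylation genes, 9 were higher and 0 lower (median 0.33), and 13 did not pass the test. Uhrf1, which guides maintenance methylation (2.75, 2.64), and Ezh2, the histone methyltransferase of Polycomb (2.59, 1.87), were highest, although a further Uhrf1 probe gave 0.29. Of 20 splicing factors, 11 were higher and 0 lower (median 0.63), but the median was 0.808 in replicate 1 and 0.438 in replicate 2. Hnrnpa2b1 (2.26, 0.94) and Srsf6 (1.62, 0.81) were the highest, and their ratios differed between the arrays. A further Hnrnpa2b1 probe gave 0.62. Of 11 developmental timing genes, 5 were higher and 0 lower (median 0.33), led by Lin28b, the RNA-binding blocker of let-7 (1.67, 1.78). Of 18 ribosome biogenesis genes, 3 were higher and 2 lower (median 0.29), shares below those over all genes. Of 22 embryonic transcription factors, 10 were higher and 3 lower (median 0.30), with Sox11 (2.89, 2.80) and Sox4 (2.00, 1.98) against Id1 (-2.84, -3.08) and Foxc1 (-1.79, -2.01). Of 14 tubulin genes, 8 were higher and 1 lower (median 0.68), led by the neuronal isotypes Tubb2b (3.45, 3.15) and Tubb3 (2.15, 2.76).

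Markers of the cell types that the preparation could hold were read the same way. The measured endothelial, pericyte and smooth muscle markers, which define the labelled tissue, were well above background in all 4 channels. Of 12 endothelial markers, 12 were lower and 0 higher at P5 (median -1.67), from Flt1 (-3.67, -3.57) to Tie1 (-0.75, -1.03). Of 9 pericyte markers measured, 8 were lower (median -1.39), led by Vtn (-1.97, -2.43) and Atp13a5 (-1.88, -2.13). Of 9 smooth muscle markers, 6 were lower and 0 higher (median -1.93), among them Tagln, Myl9 (-2.60, -2.79) and Myh11 (-2.67, -2.26). Des (1.18, -1.91) and Tpm2 (0.54, -2.30), which skeletal muscle also expresses, were 2 of the 3 that did not pass, and they were higher on the array with the muscle transcripts. With each array centred on its median, the endothelial, pericyte and smooth muscle medians were -1.46, -1.30 and -1.73, against 0.235 over all genes.

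Neural cells gave opposite patterns by maturity. Of 12 markers of immature neurons and progenitors, 11 were higher and 1 lower (median 2.06), with Igfbpl1 (4.49, 4.12) and Dcx, a microtubule protein of migrating neurons (3.78, 3.78), at the top and Nes, nestin (-0.98, -1.02), at the bottom. Further Dcx probes gave 0.85 and 2.05. Of 12 mature neuron markers, 6 were lower and 1 higher (median -0.71), although the medians were -1.09 and -0.318 in the replicates. Camk2a had -2.57 and -1.96, with -1.45 on a further probe, and Snap25, a synaptic vesicle fusion protein, had 1.85 and 1.26. Of 8 oligodendrocyte precursor markers, 6 were higher and 1 lower (median 0.78), led by Gpr17 (1.71, 2.19). Of 12 myelin markers, 9 were lower and 1 higher (median -1.55): Mal had -3.39 and -2.79. Ermn, the exception at 2.27 and 2.99, had a further probe at -0.12. Of 10 astrocyte markers, 4 were lower and 2 higher (median -0.50), with S100b (-2.28, -1.64) against Aldh1l1 (1.38, 1.77).

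Of 12 red blood cell markers, 10 were higher and 1 lower (median 1.76), led by Hba-a1 and Alas2. Epb42, Klf1 and Rhag, also of red cells, were not well above background in either adult channel. Of 10 microglial markers, 5 were higher and 0 lower (median 0.76), led by Siglech (2.53, 1.64) and Cx3cr1 (1.03, 2.20), whose further probes gave 0.58 and 0.79. P2ry12 (0.11, 1.82) and Tmem119 (-0.41, 0.85) did not pass the test. Siglech had its larger ratio on replicate 1, unlike the median of the list. Of 12 granulocyte markers, 4 were higher and 0 lower (median 0.55), and of 9 lymphocyte markers 4 were higher and 0 lower (median 0.50). Retnlg (0.48, 1.67) and S100a8 (0.29, 1.33) had the larger ratio on replicate 2, like the granulocyte list. Of 10 choroid plexus and ependymal markers, 7 were higher and 2 lower (median 0.72), led by Otx2 (2.08, 2.16) and Ttr, transthyretin (2.83, 1.66). With the dye term subtracted, the mean ratio of Ttr was 1.49 instead of 2.24. Of 10 fibroblast markers, 4 were higher and 3 lower (median 0.33), with medians of 0.667 and -0.0124 in the replicates: Col1a1, a collagen chain, had 1.57 and 1.86, and Dcn, decorin, -1.04 and -1.39. Of 7 perivascular macrophage markers, 1 was higher and 2 lower (median 0.07), and of 7 platelet markers, 1 was higher and 2 lower (median -0.39). What part the shares of these cells in the tissue had in any gene's ratio was not tested.

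**Figure D5:**
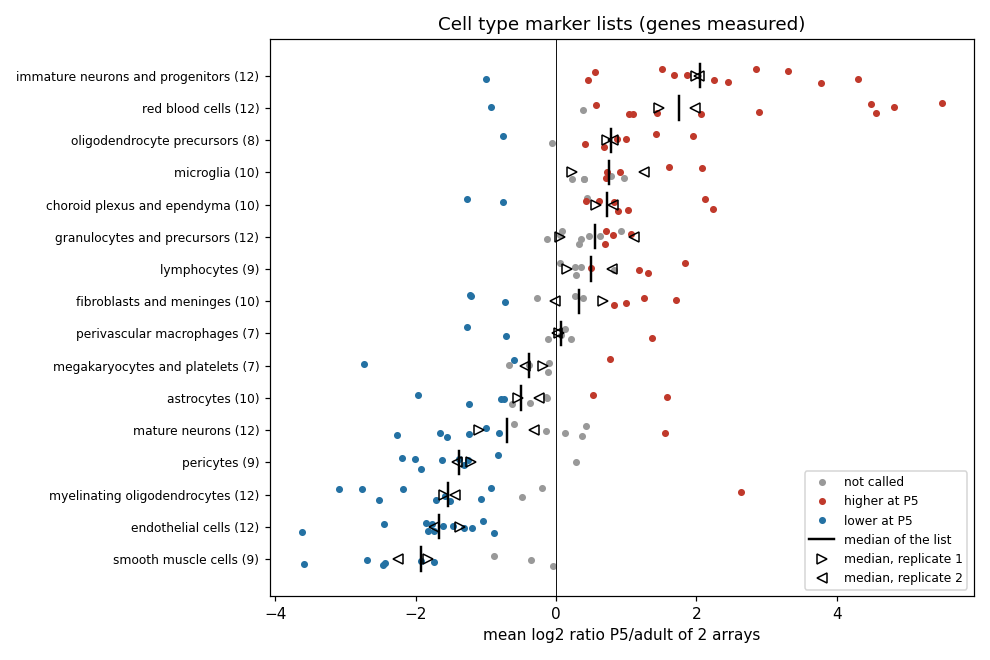
Mean log2 ratio of P5 over adult (horizontal axis) of each measured marker of 16 cell types (vertical axis, number measured in parentheses), with a black line at the median and triangles at the median of each replicate. The 12 endothelial markers lie below 0 (median -1.67), and microglial, granulocyte and lymphocyte medians are higher in replicate 2 than in replicate 1.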

How the data were processed

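Per the file headers, scanner files were produced with Agilent Feature Extraction 10.5.1.1, while the submitters' processing notes name 12.6. The deposited files hold the median signal and background intensity of each channel, and the authors' log10 ratio, used only as an alternative. The intensities were corrected with normexp (offset 50) and normalised by loess within each array (span 0.3) in limma 3.58.1 (R 4.3.3). Control and outlier spots were dropped, and spots of a probe averaged. The kept probe of highest mean intensity stood for its gene. A gene was tested when well above background on both arrays for at least 1 age: 22221 genes, 15709 with a symbol. The log2 ratios of 2 arrays were tested against 0 with limma, Benjamini-Hochberg adjusted over all genes, and the script was tested on simulated data. Channel levels are log2 intensities after loess and Aquantile.

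Genes were named by rule: the 15 highest and 15 lowest called genes by the ratio nearer 0, among genes with a symbol the 8 largest bounds at each age, and for each list its first 3 members and its 2 highest and 2 lowest called members. Some members, among them Per2, Tie1, Tpm2, Epb42, Klf1 and Rhag, were named outside this rule. The members and lists were chosen with earlier results of these data known. The skeletal muscle and sex-linked lists and the spike-in scaling were added after seeing the data. The array, and with it the replicate number, is in the ratio as a block, since both ages were hybridised together. Alternatives covered background correction, scaling, filters, probes, dye, arrays and the replicates. Results for some list members are not reported here.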

Additional observations from a re-analysis of the deposited data

Results flagged for a closer look

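The spike-in controls of the P5/adult arrays, used above only for an added scaling, had a log2 intercept of 0.707 on the array of replicate 1 and 1.01 on that of replicate 2, per the file headers. On the other arrays the intercepts ran from -0.706 to 1.41. Averaged over both dye orientations of the P10/adult pair, where a difference between the ages cancels, the intercept was -0.263 in replicate 1 and 1.14 in replicate 2. The part of the dyes in the spike-in scaling was not tested.

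Skeletal muscle genes were also high on an array outside the comparison. Their median log2 ratio on the P5/P10 array of replicate 1 was 3.55, against -0.0264 on that of replicate 2.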

How the results depend on the processing

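With the replicate block removed, so that the channels were compared as separate samples, 4546 genes were higher and 3102 lower, and 7648 (71.7%) of the calls remained. The other planned settings kept 87.1% to 98.7% of the calls. Over the 12 planned settings with a test, 2917 of 3038 comparisons of named genes kept their direction and side of the threshold. Of the called genes 0 reversed, and 21 values of genes that were not called changed sign. With 1 array left out there is no test. Then 496 of 508 values kept their sign, and the 12 that did not belong to genes that were not called. A called gene could not change sign there, since a call requires the same sign on both arrays. From the authors' log ratio, the 2-fold counts were 4560 higher and 2834 lower. Requiring 1 of 2 arrays above background gave 2233 genes at P5 only and 406 in adults only, and leaving out 1 replicate gave 2181 to 2243 and 399 to 456. Leaving out replicate 1 turned the medians of complement (0.0371), fibroblasts (-0.0124), metallothionein (0.0201), iron (0.0271) and thyroid (0.189), and leaving out replicate 2 that of fatty acid oxidation (0.0102). Iron also turned with the deposited ratio (0.137), no filter (0.0346), the median over probes (0.0695), the dye term subtracted (0.0172) and all 8 arrays (0.0492), thyroid by the indirect route (0.0556), and perivascular macrophages with the deposited ratio (-0.122) and no filter (-0.0172). Median centring turned those of metallothionein (0.0863), iron (0.162), thyroid (0.131) and FGF and PDGF (0.0021). In the spike-in scaling, added after seeing the data, 1590 genes were higher and 14482 lower (812 and 7843 at 2-fold), and the lists with a median above 0 fell from 20 to 2, immature neurons (1.20) and red blood cells (0.898). It reversed the called genes Nfil3 (-0.45), Fkbp5 (-0.081), Tyms (-0.26), Fbl (-0.37), Srsf1 (-0.18), Dnmt1 (-0.38), C3 (-0.39), F2r (-0.0017), Mdm2 (-0.34), Bbc3 (-0.30), Gtse1 (-2.84e-05), Sdc1 (-0.26), Fgfr1 (-0.090), Slc1a3 (-0.33), S100a8 (-0.051), Elane (-0.16), Gp1bb (-0.086) and Cd79a (-0.36). The cause was not tested. With genes split by intensity into 3 equal groups, 33% of the dimmest were called, 57.8% of the middle and 53.3% of the brightest.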

Other observations

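Sex-linked genes, a list chosen after seeing the data, were not all alike at the ages compared. Xist, the RNA that silences an X chromosome, had normalised log2 intensities of 11.77 and 11.42 at P5 against 9.24 and 9.22 in adults. Its mean log2 ratio was 2.37 (limma adjusted p = 0.0003), and a further probe gave 1.85. The Y-linked Eif2s3y had log2 ratios of 1.16 and 0.84 and was called higher at P5 (limma adjusted p = 0.0033). The Y-linked Ddx3y, Kdm5d and Uty did not pass the test, with mean log2 ratios of -0.15, 0.16 and -0.26.

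A gene with opposite ratios of at least 2-fold on the arrays was rare, at 5 of 22221: Acta1 (5.40, -2.05), Cox8b (4.21, -1.61), Des (1.18, -1.91), Myom1 (2.31, -1.31) and Txlnb (1.01, -1.25).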
